A study of Homo sapiens with 45 samples.

Results

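The response of the neuroblastoma line IMR-32 to 24 h of palbociclib (PB) was measured by RNA-seq in 5 control and 5 treated libraries, which are 10 of the 45 libraries of the study. They were taken by line, agent and time as the labels give them. All 29159 genes of the count table were considered, and 14293 had enough counts to be tested. The study treated IMR-32 and a further 2 ADRN-type lines, SH-SY5Y and SK-N-BE(2)C, with PB for a short and a longer time and collected controls with the 24 h samples. Cells were grown in DMEM-F12 with serum. Treated cells had 1 μM PB for 24 h and control cells had none. What vehicle the controls received was not stated for these libraries. Each replicate was a separate plating of cells at another passage. IMR-32 is an established line from a neuroblastoma with amplified MYCN and MEIS1 and a loss on 1p, which both groups share. It is a single tumour line grown on plastic, so the values describe this line and not neuroblastoma cells in general.

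Cyclin D with CDK4 or CDK6 phosphorylates RB and its relatives, which otherwise hold E2F factors in check. Free E2F drives the genes for cyclin E, cyclin A and DNA replication, and the later mitotic genes are read through MYBL2, FOXM1 and the MuvB complex, which also forms the repressive DREAM complex with RBL1 or RBL2 in resting cells. PB blocks CDK4 and CDK6, and in neuroblastoma, a tumour of the sympathetic lineage, ADRN-type cells keep the regulators HAND2, GATA3 and ISL1 of young sympathetic neurons.

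Libraries held 15965930 to 23930236 counts. Replicate 5 stood apart in both groups. Its root mean square distance from the group mean over all tested genes was 0.623 (control) and 0.604 (24 h) on the log2 scale, against 0.221 to 0.277 in the other libraries, apart from 24 h replicate 2 with 0.352. Calls were therefore also made without replicate 5, and also with the replicate number as a block, since same-numbered libraries deviated together. Markers of ADRN identity were read in all 10 libraries. PHOX2A lay at 267 to 483 counts scaled to library size (CPM) in control libraries and at 456 to 668 at 24 h, and MYCN at 1296 to 1776 and 2144 to 2468. DBH, the enzyme that makes noradrenaline, lay at 9.48 to 37.7 CPM in control libraries and at 14.1 to 48.5 at 24 h. The marker that was absent was TFAP2B, a further regulator of this lineage, which was at 0 in all 10 libraries.

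In the edgeR quasi-likelihood test, 2620 of 14293 genes (18.3%) passed an adjusted p under 0.05 with an absolute log2 fold change over 0.5, here a called gene. Of these, 1125 were higher at 24 h (7.87% of all tested) and 1495 lower (10.5%). Without replicate 5 the counts were 1315 higher (9.14%) and 1592 lower (11.1%), 20.2% together, and with the replicate block 1450 (10.1%) and 1672 (11.7%). The median log2 fold change over all tested genes was 0.06. The falls were larger than the rises. Past 1 on the log2 scale lay 755 called falls and 170 called rises, and past 2 lay 269 falls and 1 rise. That rise was KCNA2, a potassium channel gene named here after its value was seen, which was at 0 in all 5 controls and at most at 0.496 CPM at 24 h, so that no fold change is given. In 1971 genes (13.8%) every 24 h library lay below every control library in CPM, and in 1324 (9.26%) every 24 h library lay above, 23.1% together. The largest falls reported here by the naming rule below were in E2F8, E2F2, CCNE2, RRM2, UHRF1, TK1, ESCO2, E2F7, LOC728688, CDC6 and ZNF367. The largest rises were in TRANK1, PIK3IP1, H2AW, TP53INP1, PLCL1, DYRK1B, TMEM150A, CHGA, NHLH1, ZNF425, WFIKKN2 and BBC3. These genes were called with mean CPM of at least 5, did not overlap between groups, and were called in the same direction with the block and without replicate 5. The plot of list members by log2 fold change shows the groups of genes described next.

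**Figure D1:**
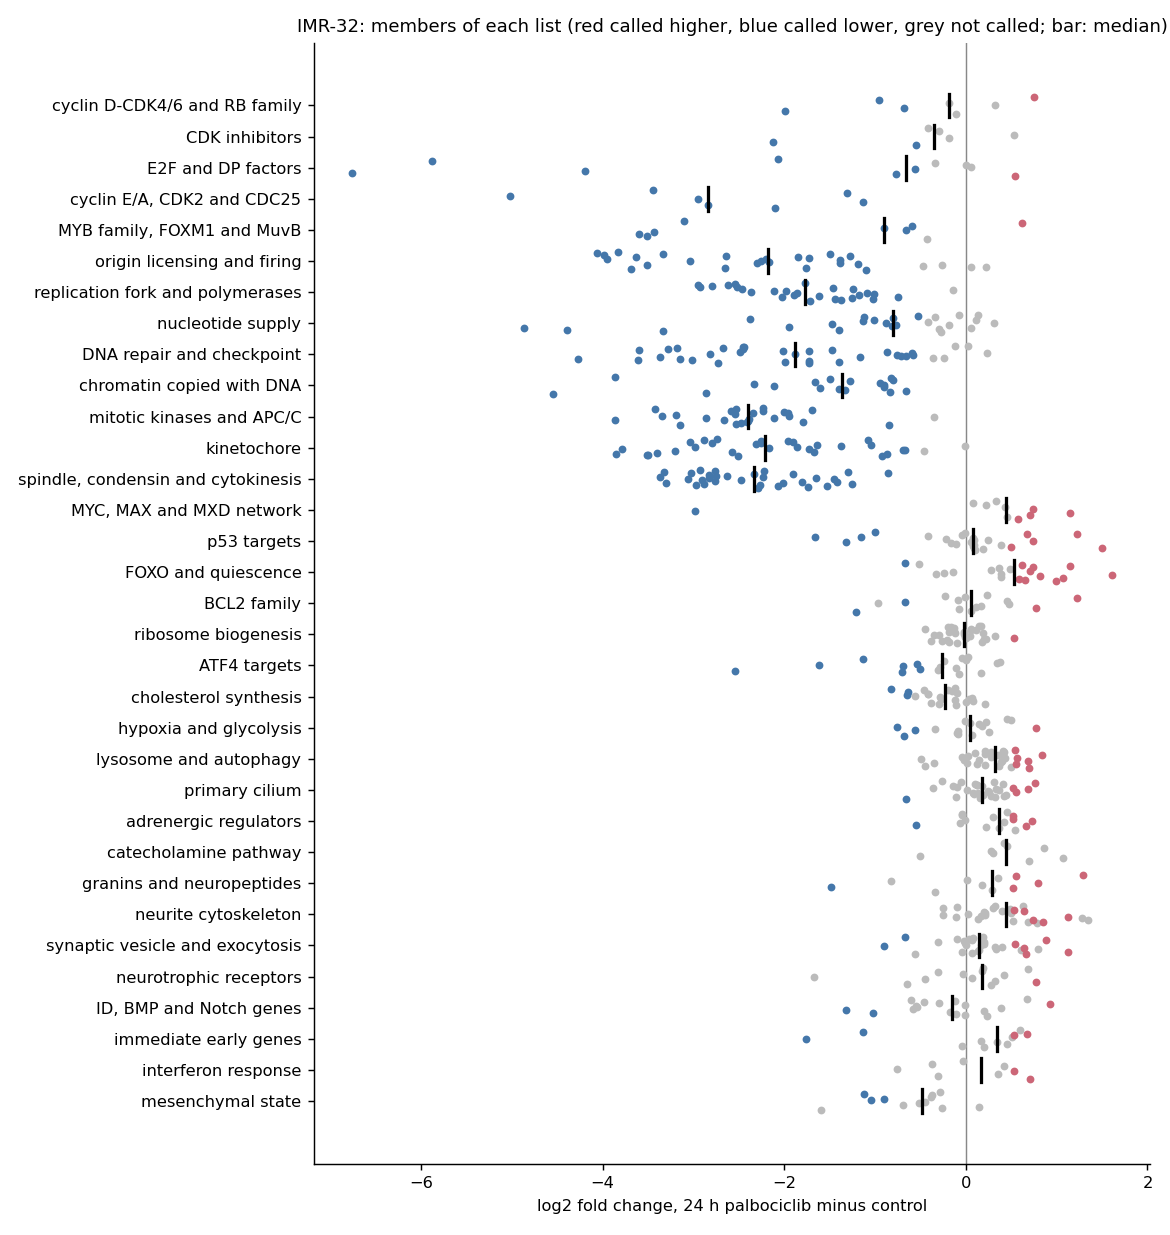
Each point is a tested gene, placed by its log2 fold change (24 h PB minus control, 5 libraries each, edgeR fit) on the x axis and by its list on the y axis; red points were called higher, blue lower and grey not called, and the black bar is the median of the list. The medians of the cyclin E/A, origin, fork, repair, chromatin, mitotic kinase, kinetochore and spindle lists lie between -1.37 and -2.84, and that of FOXO and quiescence genes lies at 0.53.

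The cyclin D and RB genes themselves split by member. CCND1, the cyclin that activates CDK4 and CDK6, lay at 1328, 1269, 1085, 1411 and 1204 CPM in the control libraries. At 24 h it lay at 2148, 1806, 1691, 2266 and 2357 CPM, so all treated libraries were above all controls, and the gene rose with a log2 fold change of 0.75 ± 0.09 (SE, adjusted p = 1.78e-05). CCND3, the other D-type cyclin with reads, lay at 33.9, 34.1, 35.7, 36.2 and 36.8 CPM in controls and at 20.04, 19.6, 16.0, 16.3 and 15.9 CPM at 24 h. It fell in all treated libraries, with a log2 fold change of -0.96 ± 0.10 (SE, adjusted p = 1.32e-06). CCND2 was at or near 0 in every library (at most 0.0496 CPM). The kinases that PB binds were not called. CDK4 had 300.01, 289.7, 333, 291 and 392 CPM in controls and 237, 324, 255, 237 and 318 CPM at 24 h, and the groups overlapped (log2 fold change -0.18 ± 0.12 SE, adjusted p = 0.252). CDK6 had 475 to 620.1 CPM in controls and 466 to 718 CPM at 24 h, also with overlap, and its log2 fold change of 0.32 ± 0.11 (SE, adjusted p = 0.0377) was under the limit on size.

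RB1, which encodes the main target of these kinases, lay at 89.7, 102, 104, 89.3 and 123 CPM in controls and at 62.9, 54.6, 65.5, 60.6 and 62.9 CPM at 24 h. Its transcript fell in all treated libraries, with a log2 fold change of -0.69 ± 0.10 (SE, adjusted p = 8.03e-05). RBL1 (p107) fell further, from between 33.3 and 60.9 CPM to between 7.26 and 14.5 CPM, with a log2 fold change of -1.99 ± 0.19 (SE, adjusted p = 5.8e-07). RBL2 (p130), the partner of DREAM in resting cells, was not called (62.8 to 70.0 CPM in controls, 46.3 to 68.1 at 24 h, log2 fold change -0.11 ± 0.08 SE, adjusted p = 0.353). The shares over all tested genes, 10.5% lower and 7.87% higher, give 0.628 lower and 0.472 higher for a list of 6. Among 6 tested CDK inhibitors 2 were called lower and 0 higher, with a median log2 fold change of -0.36, and of -0.21 without replicate 5. CDKN2C (p18) fell from between 36.0 and 42.9 CPM to between 7.82 and 10.9 CPM, with a log2 fold change of -2.12 ± 0.16 (SE, adjusted p = 3.65e-08). CDKN2D (p19) fell with overlapping groups and a log2 fold change of -0.55 ± 0.20 (SE, adjusted p = 0.0445). CDKN1A (p21) had 12.3, 10.2, 14.2, 11.4 and 29.4 CPM in controls and 9.58, 10.1, 10.7, 9.88 and 16.3 CPM at 24 h, so that control replicate 5 stood above the rest, and its log2 fold change of -0.42 ± 0.31 (SE, adjusted p = 0.326) was not called. CDKN1B (p27) lay lower in all treated libraries (234 to 283 CPM in controls, 179.9 to 232 at 24 h), but its log2 fold change of -0.30 ± 0.08 (SE, adjusted p = 0.0103) was under the limit. CDKN1C (p57) was not called in the fit without pairing (log2 fold change 0.53 ± 0.44 SE, adjusted p = 0.388) and was called higher with the replicate block, at 0.55 (adjusted p = 0.0302). It had 59.6, 50.4, 37.5, 71.2 and 10.6 CPM in controls and 79.7, 85.6, 53.1, 80.0 and 19.2 CPM at 24 h, higher at 24 h in 5 of 5 same-numbered pairs, with replicate 5 low in both groups. CDKN2A was not called, with a log2 fold change of -0.19 ± 0.19 (SE, adjusted p = 0.487).

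**Figure D2:**
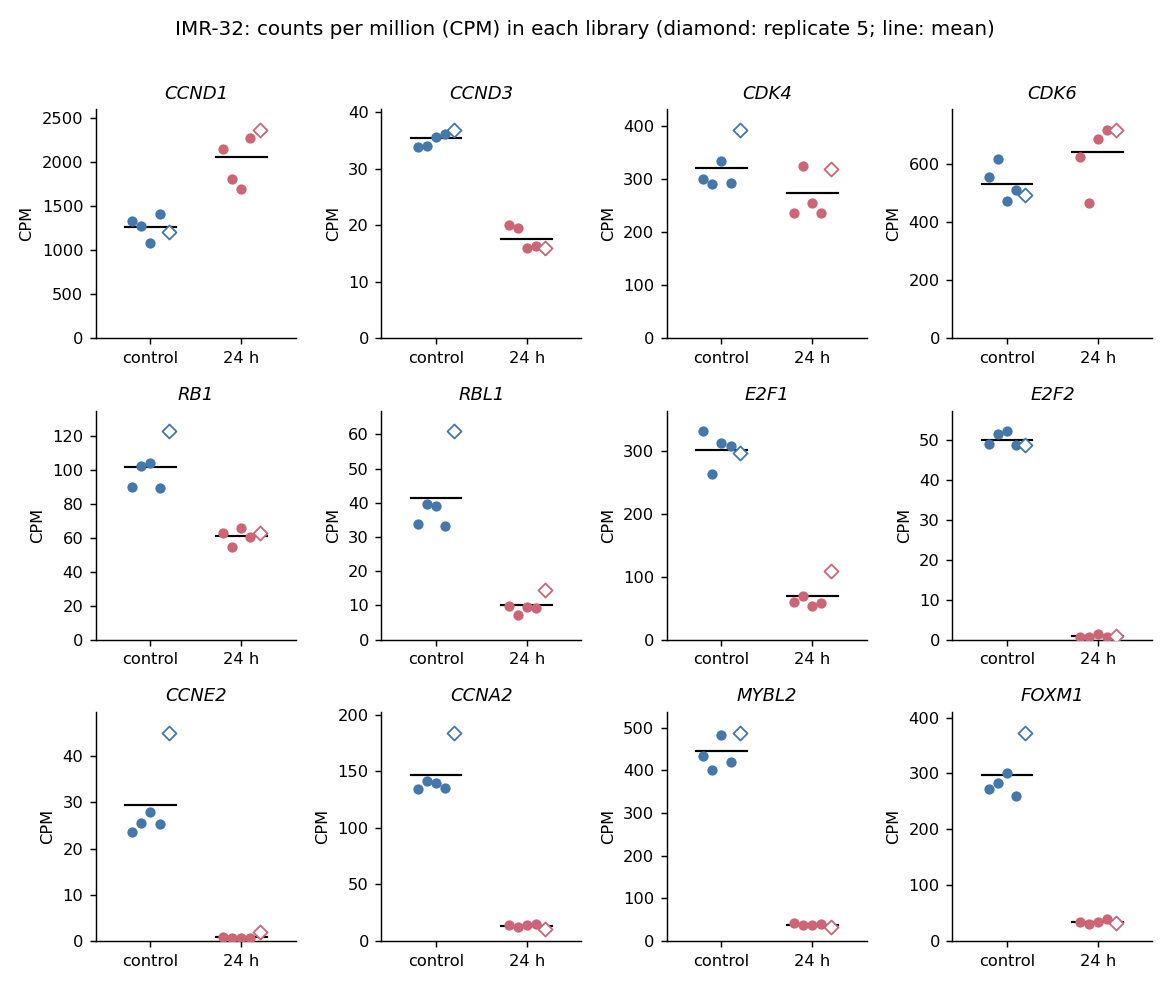
CPM (y axis, linear, from 0) of 12 genes of the cyclin D, RB, E2F, cyclin E/A and MYB-FOXM1 axis in each control and 24 h library of IMR-32; circles are replicates 1 to 4, diamonds replicate 5, and lines the mean of 5 libraries. CCND1 lies higher at 24 h in every treated library, CDK4 and CDK6 overlap between groups, and E2F2, CCNE2, CCNA2, MYBL2 and FOXM1 lie far lower at 24 h.

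Of the 10 E2F and DP factors, 6 were called lower and 1 higher, where the shares over all tested genes give 1.05 lower and 0.787 higher. E2F1, an activator, had 331, 262, 312, 307 and 296 CPM in controls and 59.5, 69.2, 53.4, 58.2 and 109 CPM at 24 h. It fell in every treated library, with a log2 fold change of -2.07 ± 0.16 (SE, adjusted p = 9.5e-08). E2F2, also an activator, had 48.9, 51.4, 52.1, 48.9 and 48.8 CPM in controls and 0.636, 0.551, 1.44, 0.597 and 0.877 CPM at 24 h. It fell to a 58.7-fold lower level, with the groups far apart (log2 fold change -5.88 ± 0.26 SE, adjusted p = 1.89e-10). E2F3, the third activator, was under the limit on size (log2 fold change -0.34 ± 0.10 SE, adjusted p = 0.0157). E2F7 and E2F8, repressors that are themselves made in S phase, fell the most of the group together with E2F2. E2F8 had 12.3, 11.1, 10.5, 9.65 and 24.3 CPM in controls and 0.196, 0.0501, 0.0992, 0.163 and 0.0626 CPM at 24 h, which are only 1 to 4 counts a library, so its log2 fold change of -6.76 ± 0.40 (SE) is imprecise. E2F7 fell from between 20.6 and 79.1 CPM to between 1.19 and 3.63 CPM with a log2 fold change of -4.20 ± 0.46 (SE, adjusted p = 5.79e-06), and its control replicate 5 was far above the others. The repressors E2F4 and E2F5, which work with RBL2, were not called, with log2 fold changes of 0.01 and 0.05 (adjusted p = 0.962 and 0.711). E2F6 fell with a log2 fold change of -0.56 ± 0.09 (SE, adjusted p = 0.0003). Of the DP partners, TFDP1 fell from between 203 and 242 CPM to between 116 and 127 CPM (log2 fold change -0.77 ± 0.08 SE, adjusted p = 2.33e-06), while TFDP2 rose from between 83.2 and 104 CPM to between 120.3 and 146 CPM (log2 fold change 0.54 ± 0.07 SE, adjusted p = 1.82e-05). Without replicate 5, TFDP2 was at 0.49 (adjusted p = 2.39e-05), under the limit on size.

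The use of strand in the counting was not stated, so genes whose exons overlap others on the opposite strand, among them CCNE2, PKMYT1, MXD3, LIN37, TYMS, CDK4, RBL2, RBBP4, PINK1 and PRPH, are uncertain in their level. All 7 genes of the cyclin E/A, CDK2 and CDC25 list were called lower, with a median log2 fold change of -2.84, where the share over all tested genes gives 0.732. CCNE2, a partner of CDK2 at the start of S phase, had 23.7, 25.5, 28.03, 25.4 and 45.1 CPM in controls and 0.831, 0.651, 0.545, 0.597 and 1.88 CPM at 24 h. It fell with a log2 fold change of -5.02 ± 0.33 (SE, adjusted p = 1.16e-08), whereas CCNE1, which had fewer reads, fell with a log2 fold change of -1.31 ± 0.17 (SE, adjusted p = 2.95e-05). CCNA2 had 134, 141, 139, 136 and 184 CPM in controls and 13.9, 12.3, 13.8, 14.7 and 10.6 CPM at 24 h (log2 fold change -3.45 ± 0.15 SE, adjusted p = 1.83e-10), and replicate 5 was its highest control and its lowest treated library. CDK2 fell from between 83.9 and 140.4 CPM to between 19.97 and 25.3 CPM, with a log2 fold change of -2.10 ± 0.15 (SE, adjusted p = 1.64e-08). The phosphatases that activate these kinases fell too, CDC25A with a log2 fold change of -2.95 ± 0.20 (SE, adjusted p = 1.39e-08), CDC25C with -2.84 ± 0.14 (SE, adjusted p = 4.8e-10) and CDC25B with -1.14 ± 0.10 (SE, adjusted p = 4.43e-07).

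Among the 9 genes of the MYB family, FOXM1 and MuvB, 7 were called lower and 1 higher, where the shares over all tested genes give 0.941 lower and 0.708 higher. MYBL2, which binds MuvB in dividing cells, had 432, 401, 482, 420.4 and 488 CPM in controls and 42.0, 38.4, 36.6, 39.5 and 32.1 CPM at 24 h, an 11.4-fold lower level (log2 fold change -3.51 ± 0.12 SE, adjusted p = 1.74e-11). FOXM1, which takes its place later in the cycle, fell from between 259.6 and 373 CPM to between 30.1 and 39.7 CPM (log2 fold change -3.10 ± 0.19 SE, adjusted p = 6.77e-09). MYB and MYBL1 fell with it, with log2 fold changes of -3.43 ± 0.22 and -3.60 ± 0.23 (SE). Of the MuvB core, LIN54, LIN9 and LIN52 fell with log2 fold changes of -0.91, -0.65 and -0.59, RBBP4 was under the limit (-0.42 ± 0.07 SE, adjusted p = 0.000204), and LIN37, the subunit needed for repression by DREAM, rose from between 5.86 and 9.20 CPM to between 9.72 and 13.3 CPM (log2 fold change 0.62 ± 0.14 SE, adjusted p = 0.00371).

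The promoters of the genes that fell furthest are shown here because E2F and CHR words are the letters through which E2F and MuvB are known to read these genes. RefSeq promoter windows (GRCh38.p14, 250 bases before to 50 after the start) were matched by symbol for 10828 of the 14293 tested genes, in 15906 windows. The E2F words (TTCCCGC or TTCGCGC or TTGCCGC or TTGGCGC) and the CHR words TTTGAA and TTCGAA were searched on both strands. The first lines are E2F2 and RRM2, the largest falls among the genes searched with an E2F word upstream of the start and a mean CPM of at least 5. The next are ASF1B and HJURP, the largest falls among those searched with a CHR word and no E2F word. Genes on the chromosome that carries CCNE2 were left out of both choices. CCNE2, which fell further than RRM2, was thus not searched for them. TRANK1, the largest rise, is the last. Only bases upstream of the start are shown, 5′ to 3′ on the gene's strand, and capitals mark E2F or CHR words. In order, they lie at chr1:23531234-23531483 (minus strand), chr2:10122318-10122567 (plus), chr19:14136590-14136839 (minus), chr2:233854536-233854785 (minus) and chr3:36945055-36945304 (minus) of GRCh38.p14.
E2F2: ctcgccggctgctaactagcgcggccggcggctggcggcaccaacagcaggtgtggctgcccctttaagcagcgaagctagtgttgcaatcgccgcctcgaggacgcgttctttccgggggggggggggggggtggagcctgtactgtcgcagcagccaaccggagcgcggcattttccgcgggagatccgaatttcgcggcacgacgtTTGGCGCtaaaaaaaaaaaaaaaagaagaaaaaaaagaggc
RRM2: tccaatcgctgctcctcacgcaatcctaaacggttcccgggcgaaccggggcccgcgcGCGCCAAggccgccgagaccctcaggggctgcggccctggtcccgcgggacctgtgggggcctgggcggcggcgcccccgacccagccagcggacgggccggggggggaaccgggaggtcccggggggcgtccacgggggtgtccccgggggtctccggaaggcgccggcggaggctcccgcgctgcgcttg
ASF1B: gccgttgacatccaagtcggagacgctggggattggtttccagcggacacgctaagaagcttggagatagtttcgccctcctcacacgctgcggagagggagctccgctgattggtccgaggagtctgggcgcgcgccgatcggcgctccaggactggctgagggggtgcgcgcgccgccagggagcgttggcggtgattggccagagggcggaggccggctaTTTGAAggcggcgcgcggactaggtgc
HJURP: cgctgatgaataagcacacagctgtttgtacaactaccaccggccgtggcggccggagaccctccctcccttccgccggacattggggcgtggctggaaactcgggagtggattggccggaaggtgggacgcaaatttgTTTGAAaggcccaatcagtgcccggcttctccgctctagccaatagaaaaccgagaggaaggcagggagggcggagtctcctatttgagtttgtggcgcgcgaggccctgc
TRANK1: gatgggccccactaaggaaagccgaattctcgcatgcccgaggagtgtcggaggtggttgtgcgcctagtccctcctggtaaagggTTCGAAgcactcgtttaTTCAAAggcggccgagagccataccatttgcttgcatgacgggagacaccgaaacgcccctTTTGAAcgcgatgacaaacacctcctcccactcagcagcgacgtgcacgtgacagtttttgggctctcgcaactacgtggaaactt
The E2F word of E2F2 begins 41 bases and that of RRM2 192 bases upstream of the start, where RRM2 has 2 windows in the table and the first with a word is shown. The CHR word begins 27 bases upstream in ASF1B and 111 in HJURP. TRANK1 holds 3 CHR words and rose, so the word is also found before a gene that rose. An E2F word was in 29.9% of the windows of genes called lower, in 12.4% of those called higher and in 18.8% of all tested. Among genes called lower with a log2 fold change under -2 the share was 40.1%. A CHR word was in 18.7%, 9.89% and 11.7% of these windows and in 29.7% of those under -2. Both kinds together were in 11.2% of the windows under -2 and in 1.78% of all. The CCAAT box, the element of NF-Y that often stands beside a CHR, was in 57.9% of the windows under -2 and in 34.4% of all. The E-box CACGTG, a word of MYC proteins, was in 9.27% and 9.36%. These shares are descriptions, with no test, and a match is not a bound site.

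Origin licensing and firing had 24 of 28 tested genes called lower and 0 higher, with a median log2 fold change of -2.18, where the shares over all tested genes give 2.93 lower and 2.20 higher. CDC6, which loads the MCM helicase on origins, had 69.0, 72.9, 82.7, 62.4 and 155 CPM in controls and 2.44, 3.31, 2.93, 2.61 and 14.97 CPM at 24 h. It fell with a log2 fold change of -4.07 ± 0.497 (SE, adjusted p = 2.29e-05), and replicate 5 was the highest library in both groups, so that it was at -4.61 without that replicate. CLSPN, MCM10 and CDC45, which work at the firing origin and the fork, fell with log2 fold changes of -3.98, -3.95 and -3.83. The replication fork list had 26 of 27 called lower (median -1.77), where the share over all genes gives 2.82. PCNA, the sliding clamp of the polymerases, had 259, 265, 296, 250.1 and 359.9 CPM in controls and 30.1, 44.8, 34.3, 30.7 and 41.6 CPM at 24 h, a 7.63-fold lower level (log2 fold change -2.93 ± 0.15 SE, adjusted p = 8.21e-10). The histone chaperone subunit CHAF1B fell with a log2 fold change of -2.95 ± 0.14 (SE, adjusted p = 4.05e-10), the nuclease FEN1 with -2.79 and the helicase DNA2 with -2.62.

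Of 25 tested nucleotide supply genes, 15 were called lower and 0 higher (median -0.80), where the shares over all tested genes give 2.61 lower and 1.97 higher. RRM2 (chr2:10260825-10351851, GRCh37), the S-phase subunit of ribonucleotide reductase, had 114, 136, 122, 119.6 and 199 CPM in controls and 4.94, 4.36, 4.21, 4.83 and 4.57 CPM at 24 h. It fell 29.2-fold, a log2 fold change of -4.87 ± 0.19 (SE, adjusted p = 8.35e-11). TK1, the thymidine kinase of dividing cells, had 178, 162, 192, 167 and 235 CPM in controls and 6.45, 8.91, 9.07, 7.06 and 11.8 CPM at 24 h (log2 fold change -4.39 ± 0.20 SE, adjusted p = 2.63e-10). TYMS, which makes thymidylate, fell from between 291 and 376 CPM to between 26.3 and 33.6 CPM (log2 fold change -3.34 ± 0.14 SE, adjusted p = 1.11e-10). The 10 members not called had log2 fold changes from -0.41 to 0.31.

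DNA repair and checkpoint genes had 30 of 35 tested called lower and 0 higher (median -1.88), where the shares over all tested genes give 3.66 lower and 2.75 higher. RAD54L, a motor protein of homologous recombination, had 38.3, 44.1, 39.5, 39.7 and 51.4 CPM in controls and 2.40, 2.80, 2.13, 3.15 and 6.64 CPM at 24 h, and the groups lay apart. It fell with a log2 fold change of -3.61 ± 0.25 (SE, adjusted p = 2.46e-08). The nuclease EXO1 fell from between 77.7 and 151 CPM to between 5.37 and 15.1 CPM (log2 fold change -3.60 ± 0.28 SE, adjusted p = 1.4e-07) and the glycosylase NEIL3 with -3.36 ± 0.23 (SE, adjusted p = 1.52e-08). All 18 genes for chromatin copied with DNA were called lower (median -1.37), where the share over all genes gives 1.88. UHRF1, which brings DNMT1 to new DNA, had 191, 200.1, 219, 185 and 318 CPM in controls and 8.46, 6.21, 8.03, 7.54 and 16.3 CPM at 24 h, a 23.4-fold lower level (log2 fold change -4.55 ± 0.29 SE, adjusted p = 1.15e-08). ASF1B, a histone chaperone, fell from between 39.7 and 59.0 CPM to between 2.82 and 3.38 CPM (log2 fold change -3.86 ± 0.18 SE, adjusted p = 4.05e-10), TOP2A, the topoisomerase of mitotic chromosomes, with -2.86 ± 0.18 (SE, adjusted p = 6.12e-09) and the remodeller HELLS with -2.33 ± 0.21 (SE, adjusted p = 4.92e-07). Outside the lists, ESCO2, which acetylates cohesin in S phase, fell from between 25.5 and 49.2 CPM to between 1.05 and 2.51 CPM (log2 fold change -4.36 ± 0.31 SE, adjusted p = 3.28e-08), and ZNF367 fell with a log2 fold change of -4.06 ± 0.32 (SE, adjusted p = 1.06e-07). LOC728688, a pseudogene in RefSeq that may share reads with a parent gene, fell with a log2 fold change of -4.19.

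Nearly all mitotic genes fell as well. Of mitotic kinase and APC/C genes, 25 of 26 were called lower (median -2.40), of kinetochore genes 30 of 32 (median -2.21), and of spindle, condensin and cytokinesis genes 33 of 33 (median -2.33), with 0 called higher in each. For lists of these sizes the share over all tested genes gives 2.72, 3.35 and 3.45 called lower. CDK1, the kinase of mitosis, had 127, 143, 136, 127 and 195 CPM in controls and 14.96, 15.5, 16.9, 14.5 and 15.5 CPM at 24 h (log2 fold change -3.19 ± 0.16 SE, adjusted p = 7.02e-10). AURKB, of the chromosomal passenger complex, fell from between 109 and 147 CPM to between 7.58 and 13.2 CPM (log2 fold change -3.42 ± 0.18 SE, adjusted p = 8.63e-10). PKMYT1, which inhibits CDK1, fell furthest of that list with a log2 fold change of -3.86 ± 0.22 (SE, adjusted p = 2.24e-09), and separase (ESPL1) fell with a log2 fold change of -3.35 ± 0.17 (SE, adjusted p = 7.02e-10). HJURP, the chaperone of the centromeric histone CENPA, had 56.3, 55.0, 60.6, 50.1 and 80.6 CPM in controls and 4.45, 3.96, 4.07, 3.58 and 5.26 CPM at 24 h, with a log2 fold change of -3.79 ± 0.16 (SE, adjusted p = 1.83e-10). SKA3, SPC24 and SPC25, which hold microtubules at the kinetochore, fell with log2 fold changes of -3.85, -3.51 and -3.50. Of the spindle genes, KIF18B, CKAP2L, NCAPG and KIF23 fell with log2 fold changes of -3.37, -3.33, -3.30 and -3.06. In these 3 mitotic lists the mean log2 CPM of the members lay at 6.56 to 7.05, 5.37 to 5.95 and 6.65 to 7.15 in control libraries, and at 4.27 to 4.38, 3.33 to 3.74 and 4.27 to 4.62 at 24 h, so the groups lay well apart. Fewer cells in a phase and less RNA per cell cannot be told apart in these bulk samples.

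In the MYC network, MXD factors moved in opposite directions. Of 10 tested genes, 4 were called higher and 1 lower, where the shares over all tested genes give 0.787 and 1.05. MXD4, a repressor that pairs with MAX in resting cells, had 111, 103, 90.9, 110.4 and 48.7 CPM in controls and 203, 204, 191, 202 and 191 CPM at 24 h. It rose with a log2 fold change of 1.14 ± 0.16 (SE, adjusted p = 5.62e-05), and control replicate 5 was the lowest library. MXD1 and MXI1 rose with log2 fold changes of 0.74 ± 0.11 (SE, adjusted p = 9.14e-05) and 0.71 ± 0.12 (SE, adjusted p = 0.000296). MXD3, the family member of S phase, fell from between 27.8 and 36.1 CPM to between 1.82 and 4.99 CPM (log2 fold change -2.98 ± 0.20 SE, adjusted p = 1.05e-08). MYCN had 1755, 1596, 1762, 1776 and 1296 CPM in controls and 2366, 2395, 2441, 2144 and 2468 CPM at 24 h, so all treated libraries were above all controls (log2 fold change 0.58 ± 0.09 SE, adjusted p = 0.000114). Without replicate 5 its log2 fold change was 0.496 (adjusted p = 0.000157), under the limit on size. MYC was at most 0.49 CPM in every library. Ribosome biogenesis genes, known targets of MYC proteins, had 1 of 30 called higher and 0 lower, fewer than the 2.36 higher and 3.14 lower that the shares over all tested genes give for a list of this size, and 0 in each direction in DESeq2. That gene was PPAN (log2 fold change 0.52 ± 0.19 SE, adjusted p = 0.0404), named here after its value was seen, as are all further genes outside the naming rule.

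Of 20 tested genes of FOXO signalling and quiescence, 10 were called higher and 1 lower (7.87% and 10.5% over all tested genes), with a median log2 fold change of 0.53, and the counts were 10 and 1 also without replicate 5. PIK3IP1, an inhibitor of PI3 kinase, had 3.18, 3.26, 2.50, 3.38 and 0.402 CPM in controls and 9.04, 6.66, 7.88, 9.82 and 4.57 CPM at 24 h (log2 fold change 1.61 ± 0.38 SE, adjusted p = 0.00429). DDIT4, an inhibitor of mTORC1, had 69.9, 59.6, 58.6, 73.5 and 45.2 CPM in controls and 119.9, 143, 105, 129 and 159.8 CPM at 24 h (log2 fold change 1.15 ± 0.14 SE, adjusted p = 9.86e-06). YPEL5 and PINK1, the kinase of damaged mitochondria, rose with log2 fold changes of 0.997 ± 0.15 (SE, adjusted p = 0.000139) and 0.82 ± 0.13 (SE, adjusted p = 0.000209), and TOB1, an inhibitor of growth, with 1.07 ± 0.36 (SE, adjusted p = 0.0344). CCNG2, FBXO32, HBP1, TXNIP and YPEL3 rose with log2 fold changes of 0.59 to 0.74. BCL2L11 (BIM) was the exception and fell from between 15.8 and 19.5 CPM to between 8.86 and 12.4 CPM (log2 fold change -0.67 ± 0.10 SE, adjusted p = 0.000127).

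Of 25 p53 targets 5 were called higher and 4 lower, where the shares over all tested genes give 1.97 and 2.61. TP53INP1 had 40.0, 46.7, 39.2, 44.8 and 25.9 CPM in controls and 113, 105, 105, 102 and 114 CPM at 24 h, a 2.84-fold rise (log2 fold change 1.504 ± 0.13 SE, adjusted p = 1.91e-07). BBC3 (PUMA), a promoter of cell death, rose from between 1.49 and 7.40 CPM to between 7.45 and 12.2 CPM (log2 fold change 1.22 ± 0.32 SE, adjusted p = 0.00885), and BTG2, PLK3 and TP53I3 with 0.67, 0.74 and 0.501. The DNA repair genes POLH and DDB2 fell with log2 fold changes of -1.32 ± 0.10 (SE, adjusted p = 8.72e-08) and -1.16 ± 0.16 (SE, adjusted p = 5.3e-05), AEN with -1.001 and the death receptor FAS with -1.66. CDKN1A, the classic target, was among those not called. In the BCL2 family 2 of 15 were called in each direction, near the 1.18 and 1.57 that the shares over all tested genes give, so the count says nothing of the family. BBC3 and BMF rose, BMF with 0.77 ± 0.12 (SE, adjusted p = 0.000174). PMAIP1 (NOXA) fell from between 43.6 and 60.7 CPM to between 17.6 and 24.7 CPM (log2 fold change -1.20 ± 0.15 SE, adjusted p = 1.31e-05), and BCL2L11 fell as given above. BCL2 was near 0 change with all libraries (-0.09 ± 0.77 SE, adjusted p = 0.944), but had 8.80, 9.47, 6.59, 7.15 and 35.6 CPM in controls and 5.08, 3.71, 4.51, 3.36 and 46.2 CPM at 24 h, and without replicate 5 it was called lower, at -0.88 (adjusted p = 0.00273).

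The largest rises were smaller than the falls. TRANK1 had 8.27, 7.51, 2.78, 10.3 and 1.95 CPM in controls and 21.2, 15.9, 11.9, 29.3 and 16.2 CPM at 24 h, a 3.13-fold rise (log2 fold change 1.65 ± 0.40 SE, adjusted p = 0.00534). DYRK1B, a kinase of quiescent cells that destabilises cyclin D, had 28.8, 33.3, 27.0, 34.6 and 9.71 CPM in controls and 76.3, 74.1, 65.3, 69.0 and 55.8 CPM at 24 h (log2 fold change 1.40 ± 0.24 SE, adjusted p = 0.000454). NHLH1, a helix-loop-helix factor of young neurons, had 32.5, 34.4, 33.9, 39.1 and 26.1 CPM in controls and 74.1, 78.3, 70.3, 82.0 and 82.4 CPM at 24 h (log2 fold change 1.27 ± 0.09 SE, adjusted p = 1.37e-08). The groups lay well apart, replicate 5 included. H2AW, a histone H2A gene, rose with a log2 fold change of 1.51 ± 0.23 (SE, adjusted p = 0.00013) and PLCL1 with 1.43 ± 0.44 (SE, adjusted p = 0.0214), both with control replicate 5 below the others. TMEM150A rose from between 4.06 and 5.56 CPM to between 10.96 and 12.5 CPM (log2 fold change 1.30 ± 0.12 SE, adjusted p = 8.54e-07), ZNF425 with 1.27 and WFIKKN2, a secreted inhibitor of GDF11, with 1.25 ± 0.31 (SE, adjusted p = 0.00721). The plot of the rises by library shows the place of replicate 5 in each.

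**Figure D3:**
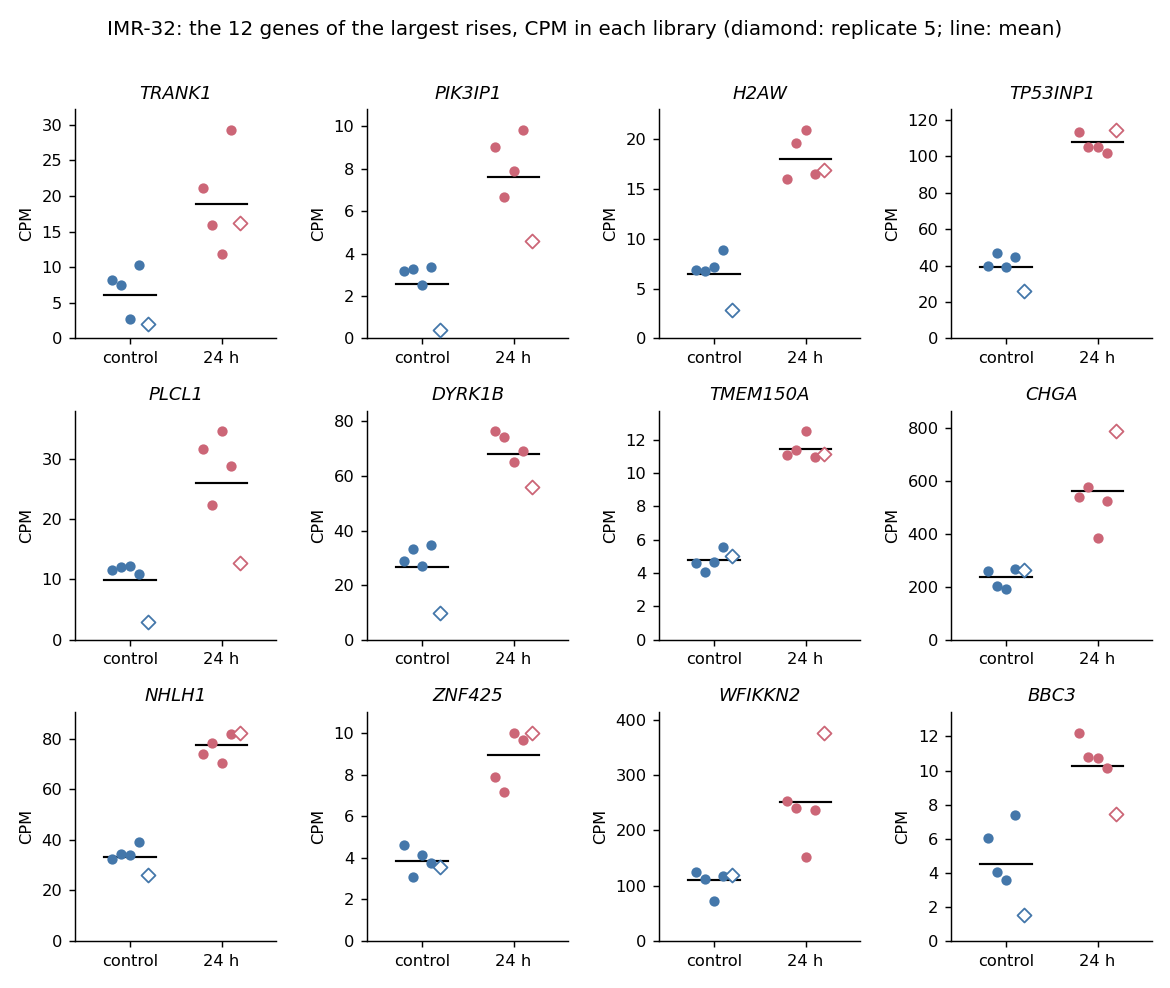
CPM (y axis, linear, from 0) in each control and 24 h library of IMR-32 for the 12 genes of the largest rises; circles are replicates 1 to 4, diamonds replicate 5 and lines the mean of 5 libraries. In each gene all 5 treated libraries lie above all 5 controls, which the choice of these genes required. Control replicate 5 is the lowest control in TRANK1, PIK3IP1, H2AW, TP53INP1, PLCL1, DYRK1B, NHLH1 and BBC3.

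Among biosynthesis and stress genes, ATF4 targets had 7 of 18 called lower and 0 higher (median -0.27), where the shares over all tested genes give 1.88 lower and 1.42 higher. PHGDH and PSAT1, enzymes of serine synthesis, fell from between 173 and 275 CPM to between 58.6 and 72.2 CPM (log2 fold change -1.61 ± 0.14 SE, adjusted p = 3.29e-07) and from between 104 and 127 CPM to between 57.7 and 75.1 CPM (-0.70 ± 0.09 SE, adjusted p = 3.87e-05). The amino acid transporter SLC7A5 fell with a log2 fold change of -0.70 ± 0.18 (SE, adjusted p = 0.0066) and ATF3 with -1.13 ± 0.22 (SE, adjusted p = 0.00119). SHMT2, MTHFD2 and SLC7A11 completed the 7, and SHMT2 was not called with the block or without replicate 5. In cholesterol synthesis 3 of 22 were called lower, near the 2.301 of the share over all genes. Among them IDI1 and FDPS fell with log2 fold changes of -0.65 and -0.64. In hypoxia and glycolysis 1 of 17 was called higher (NDRG1, 0.78) and 3 lower (LDHA -0.76, VEGFA -0.69, PDK1 -0.56), near the 1.34 and 1.78 of the shares over all genes, and PDK1 lost its call without replicate 5. Lysosome and autophagy genes had 6 of 30 called higher and 0 lower (median 0.32), where the shares over all genes give 2.36 and 3.14. PSAP, whose product is cut into the saposins, had 466, 461, 451, 498 and 366 CPM in controls and 612, 710.5, 605, 637 and 608 CPM at 24 h (log2 fold change 0.55 ± 0.08 SE, adjusted p = 0.000108). MAP1LC3B, WIPI1 and GRN rose with log2 fold changes of 0.68, 0.69 and 0.57, with GAA and ATP6AP1 at 0.84 and 0.54. Primary cilium genes had 4 of 31 called higher and 1 lower, where the shares over all genes give 2.44 and 3.24, and 3 and 1 both without replicate 5 and in DESeq2. BBS1, IFT20, IFT57 and IFT140, of the BBSome and the transport trains, rose with log2 fold changes of 0.76, 0.69, 0.55 and 0.52, where IFT140 was the call lost, and TULP3 fell with a log2 fold change of -0.65.

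The adrenergic regulators hold the identity of sympathetic neurons. Of 15 tested adrenergic regulators, 4 were called higher and 1 lower (median 0.36, 0.24 without replicate 5), where the shares over all tested genes give 1.18 and 1.57, and 2 and 1 in DESeq2. GATA3 had 486, 515, 424, 526 and 389.8 CPM in controls and 687, 734, 594, 700.1 and 539.6 CPM at 24 h (log2 fold change 0.52 ± 0.10 SE, adjusted p = 0.000859), with all treated libraries above all controls. HAND2 had 869, 754, 667, 875 and 536 CPM in controls and 1143, 1086, 912, 1076 and 903 CPM at 24 h (log2 fold change 0.52 ± 0.13 SE, adjusted p = 0.00529), and without replicate 5 it was at 0.47 (adjusted p = 0.0022), not past the limit on size. PHOX2A and ISL1 rose with log2 fold changes of 0.66 ± 0.16 (SE, adjusted p = 0.00476) and 0.73 ± 0.21 (SE, adjusted p = 0.0162) with overlapping groups. MEIS2 fell with a log2 fold change of -0.55 ± 0.13 (SE, adjusted p = 0.00464), a call lost without replicate 5. In the catecholamine pathway 0 of 8 were called in either direction by edgeR (1 at an unadjusted p under 0.05, and 0 called in DESeq2), against 2 higher and 1 lower with the block and 2 higher, GCH1 and TH, without replicate 5. The shares over all tested genes give 0.630 higher and 0.837 lower for a list of 8, so the first count lies near them. GCH1, which makes the cofactor of tyrosine hydroxylase, had 141, 129.9, 75.0, 142 and 14.8 CPM in controls and 236, 235, 148, 225 and 34.9 CPM at 24 h. It was higher at 24 h in all 5 same-numbered pairs but not called without the block (0.86 ± 0.56 SE, adjusted p = 0.257), and called with it (0.91, adjusted p = 0.000716). Tyrosine hydroxylase itself (TH) had 19.1, 13.1, 14.5, 23.7 and 0.804 CPM in controls and 25.5, 28.6, 22.3, 33.7 and 1.44 CPM at 24 h (log2 fold change 0.70 ± 0.70 SE, adjusted p = 0.472), with replicate 5 far below the others in both groups. MAOA, which breaks the amines down, was not called (0.28 ± 0.12 SE, adjusted p = 0.0788).

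Granin and neuropeptide genes had 4 of 11 called higher and 1 lower, where the shares over all tested genes give 0.866 and 1.15, and 2 and 1 without replicate 5. CHGA (chromogranin A), the main protein of dense-core granules, had 261, 205, 191, 268 and 263 CPM in controls and 539.8, 579, 385, 525 and 789 CPM at 24 h, a 2.45-fold rise (log2 fold change 1.29 ± 0.21 SE, adjusted p = 0.000239). PCSK1N rose with a log2 fold change of 0.79, and CHGB and SCG2 with 0.55 ± 0.13 (SE, adjusted p = 0.00531) and 0.51 ± 0.12 (SE, adjusted p = 0.00418), where these last calls were lost without replicate 5. PENK fell, at under 3 CPM in every library, with a log2 fold change of -1.49. Neurite cytoskeleton genes had 5 of 26 called higher and 0 lower (median 0.44), where the shares over all genes give 2.05 and 2.72, and 9 higher both with the block and without replicate 5. TUBB3 (βIII-tubulin) had 819.9, 753, 688, 834 and 246 CPM in controls and 1212, 1527, 1132, 1253 and 646 CPM at 24 h (log2 fold change 0.84 ± 0.28 SE, adjusted p = 0.0323). Replicate 5 lay far below the other libraries in both groups and was higher at 24 h within its own pair. INA, an intermediate filament of neurons, was the member of the list whose groups did not overlap, with 337, 322, 368, 333 and 299 CPM in controls and 477, 432, 519, 435 and 456 CPM at 24 h (log2 fold change 0.53 ± 0.07 SE, adjusted p = 4.17e-05). PRPH, TUBA1A and L1CAM rose with log2 fold changes of 1.121, 0.74 and 0.64. STMN2, a marker of growing axons, had 465, 451, 229, 579.6 and 9.83 CPM in controls and 998, 1314, 634, 1029 and 61.6 CPM at 24 h. With replicate 5 its log2 fold change of 1.28 ± 0.76 (SE, adjusted p = 0.217) was not called, and without it the value was 1.27 (adjusted p = 0.00391).

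Synaptic vesicle and exocytosis genes had 5 of 29 called higher and 2 lower, where the shares over all tested genes give 2.28 and 3.03. The median log2 fold change of 0.14 was 0.09 without replicate 5, 0.06 without control replicate 5 and 0.04 without 24 h replicate 4, and it was 0.21 without control replicate 4 and 0.24 without replicate 2. SYP (synaptophysin) had 205, 164, 186, 208 and 123 CPM in controls and 278, 301, 251, 288 and 222 CPM at 24 h (log2 fold change 0.64 ± 0.12 SE, adjusted p = 0.000874). STX1A, of the SNARE complex, had 76.7, 77.9, 76.6, 81.6 and 77.9 CPM in controls and 110.4, 101, 98.4, 109 and 132 CPM at 24 h (log2 fold change 0.54 ± 0.07 SE, adjusted p = 5.04e-05), and was at 0.48 (adjusted p = 1.33e-05) without replicate 5. VAMP2, RAB3A and SYT5 rose with log2 fold changes of 0.66, 0.89 and 1.122, and AMPH and SV2C fell with log2 fold changes of -0.67 and -0.90. The same-number differences in mean log2 CPM (24 h minus control, replicates 1 to 5) were 0.39, 0.46, 0.41, 0.41 and 0.56 for the neurite list and 0.13, -0.06, 0.24, 0.19 and 0.40 for the synaptic list. The neurite list was higher at 24 h in 5 of 5 pairs and the synaptic list in 4 of 5, with replicate 2 the exception. For comparison the differences were -2.23, -2.13, -2.35, -2.20 and -2.05 for origin genes and 0.36, 0.40, 0.47, 0.43 and 0.66 for FOXO genes. The plot by replicate number shows all lists this way.

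**Figure D4:**
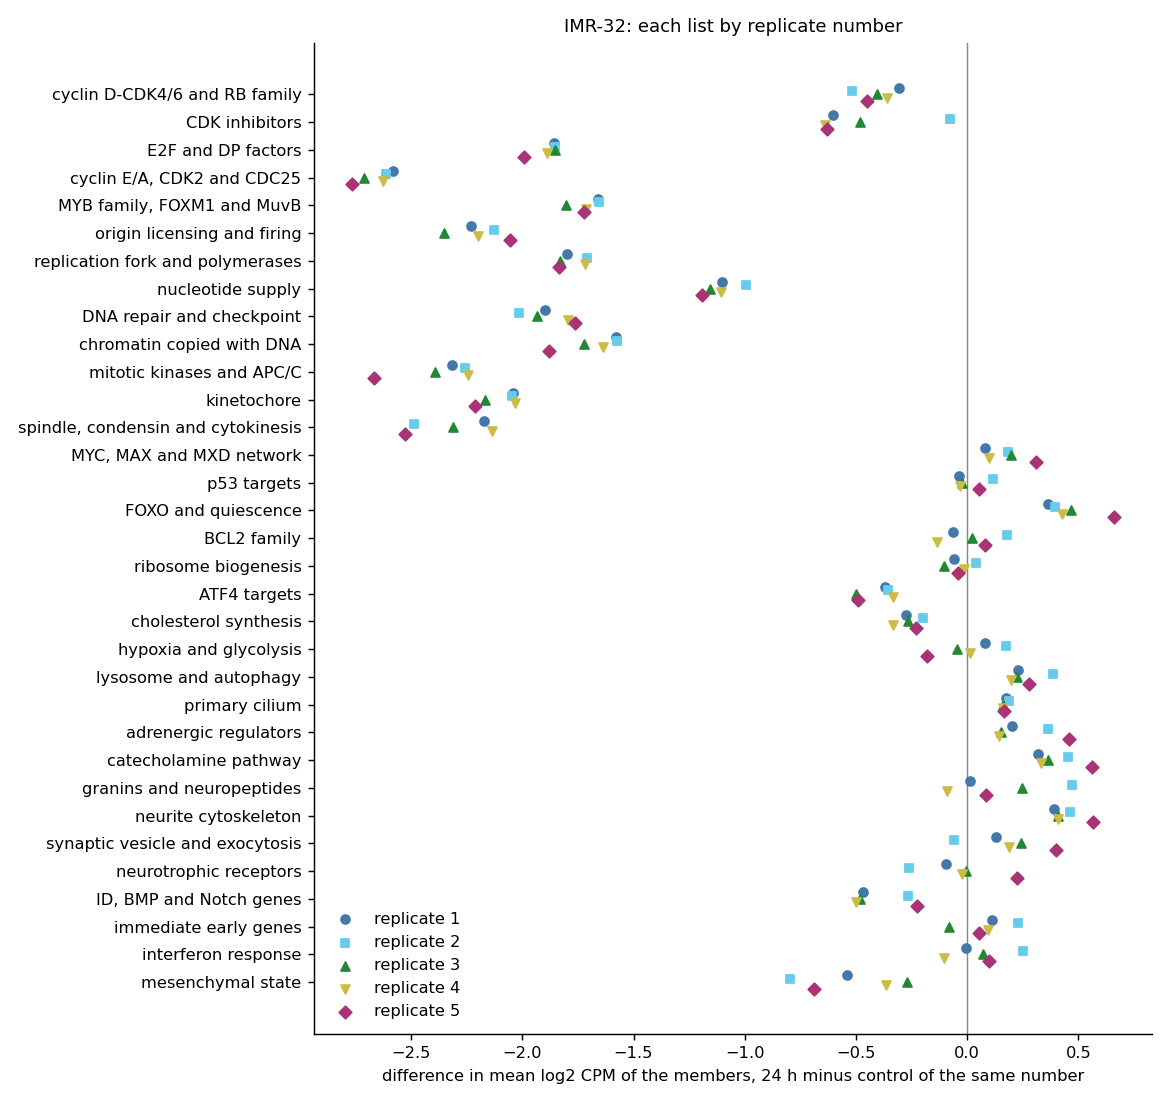
Each symbol is the difference in mean log2 CPM of a list's tested members between the 24 h and the control library of the same replicate number (x axis), with a list per line on the y axis and a colour and symbol per replicate. All 5 replicates lie between -2.66 and -2.24 for mitotic kinases and between 0.39 and 0.56 for the neurite cytoskeleton, while granins, interferon response and synaptic genes spread to both sides of 0.

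Among 18 ID, BMP and Notch genes 1 was called higher and 2 lower, and 1 and 4 without replicate 5 and 2 and 4 with the block. The shares over all tested genes give 1.42 and 1.88, so the first count lies near them. DLL3, an inhibitor of Notch signalling, had 217, 163, 149, 217 and 129 CPM in controls and 323, 331, 225, 278 and 446 CPM at 24 h (log2 fold change 0.92 ± 0.19 SE, adjusted p = 0.00141), and NOTCH1 had 92.2, 86.0, 45.1, 82.9 and 65.2 CPM in controls and 47.6, 29.5, 20.9, 55.5 and 24.2 CPM at 24 h (-1.02 ± 0.27 SE, adjusted p = 0.0089). ID4 fell with a log2 fold change of -1.32 ± 0.22 (SE, adjusted p = 0.000273). ID1 had 1.24, 0.852, 1.31, 0.961 and 138 CPM in controls and 0.0978, 0.200, 0.149, 0.0543 and 98.0 CPM at 24 h, so replicate 5 carried nearly all of its reads. Without replicate 5 it was called lower (-2.99, adjusted p = 0.015). Of 11 immediate early genes 2 were called higher (DUSP1 0.53, BTG2 as above) and 2 lower (EGR2 -1.76, ATF3 as above), where the shares over all genes give 0.866 and 1.15. Of 8 interferon response genes 2 were called higher and 0 lower, where the shares over all genes give 0.630 and 0.837. The higher genes were STAT2 from between 34.0 and 41.5 CPM to between 56.2 and 62.9 CPM (log2 fold change 0.70 ± 0.09 SE, adjusted p = 1.57e-05) and IRF9 with 0.53 ± 0.15 (SE, adjusted p = 0.013). IRF1 was not called (log2 fold change -0.76), but was called lower with the block, at -0.79 (adjusted p = 0.0456), and without replicate 5, at -0.90 (adjusted p = 0.0242).

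Markers of other cell types were low. The summed CPM of 5 Schwann and glial markers was 1.26 to 3.65 in controls and 3.19 to 3.80 at 24 h, that of 5 leukocyte markers 0.327 to 0.804 and 0.564 to 1.14, and that of 4 epithelial markers 0.0575 to 0.301 and 0.0978 to 0.313. The 4 endothelial markers summed to 1.21 to 2.47 and 1.25 to 3.57 CPM, nearly all of it CDH5 (0.804 to 2.17 CPM in controls, 1.13 to 3.26 at 24 h, log2 fold change 0.91 ± 0.30 SE, adjusted p = 0.0277, called). CD3E, KRT5 and KRT14, which define T cells and basal epithelium, were at 0 in all 10 libraries. Of 12 tested genes of the mesenchymal state, another cell state of neuroblastoma, 3 were called lower and 0 higher, where the shares over all genes give 1.26 and 0.945. The median log2 fold change of -0.49 was -0.09 without control replicate 5 and -0.74 without 24 h replicate 5. LOX, MAML2 and FN1 fell with log2 fold changes of -0.90, -1.05 and -1.13. VIM and TWIST1 were not called (log2 fold changes -0.26 and 0.15). Replicate 5 stood apart in this list. VIM had 336, 354, 361, 316 and 791 CPM in controls and 282, 313, 273, 246 and 639.5 CPM at 24 h, and SNAI2 had 0.309, 0.250, 1.03, 0.125 and 28.2 and 0.0978, 0.1502, 0.892, 0.163 and 17.3 CPM. The part of this in the calls above was not tested beyond the values given without replicate 5.

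The 24 h response of IMR-32 was compared with those of SK-N-BE(2)C and SH-SY5Y, which had the same dose and time, in a fit of all 45 libraries over 16282 genes. The response differed from that of SK-N-BE(2)C in 731 genes (4.49%, 279 higher in IMR-32, 1.71% of all tested, and 452 lower, 2.78%), and from that of SH-SY5Y in 500 (3.07%, 169 higher, 1.04%, and 331 lower, 2.03%). With the replicate block the counts were 1121 against SK-N-BE(2)C (6.88%, 433 higher, 2.66%, and 688 lower, 4.23%) and 926 against SH-SY5Y (5.69%, 325 higher, 2%, and 601 lower, 3.69%). Against both lines alike, 49 were higher (0.301%) and 155 lower (0.952%). Several S-phase genes fell further in IMR-32 than in either other line. E2F2 had a log2 fold change of -5.88 in IMR-32, -3.53 in SH-SY5Y and -3.24 in SK-N-BE(2)C. The difference was -2.64 ± 0.66 (SE, adjusted p = 0.00951) from SK-N-BE(2)C and -2.35 ± 0.66 (SE, adjusted p = 0.0329) from SH-SY5Y. UHRF1 had -4.56 in IMR-32, and the differences in the same order were -2.62 ± 0.39 (SE, adjusted p = 2.13e-05) and -2.26 ± 0.39 (SE, adjusted p = 0.000255). CDC6 and EXO1 also fell further, with differences of -2.45 ± 0.46 (SE, adjusted p = 0.000553) and -2.17 ± 0.32 (SE, adjusted p = 1.65e-05) from SK-N-BE(2)C, and of -1.91 ± 0.46 (SE, adjusted p = 0.0118) and -1.98 ± 0.32 (SE, adjusted p = 8.38e-05) from SH-SY5Y. PLAUR, the urokinase receptor, fell from between 8.78 and 13.7 CPM to between 0.545 and 1.69 CPM in IMR-32, further than in the others by -2.16 ± 0.41 (SE, adjusted p = 0.000602) and -2.07 ± 0.37 (SE, adjusted p = 0.000329).

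Other genes went the other way. KIF20A, a kinesin of cytokinesis, fell less in IMR-32, with a log2 fold change of -2.83 against -4.88 in SH-SY5Y and -4.98 in SK-N-BE(2)C, and differences of 2.15 ± 0.51 (SE, adjusted p = 0.00654) from SK-N-BE(2)C and 2.05 ± 0.51 (SE, adjusted p = 0.0151) from SH-SY5Y. CDCA3 fell less, with differences in the same order of 1.68 ± 0.37 (SE, adjusted p = 0.00342) and 1.45 ± 0.38 (SE, adjusted p = 0.0197). RAI14 and NRIP1 were not called in IMR-32 (-0.09 and -0.09) while their log2 fold changes in SK-N-BE(2)C and SH-SY5Y were -2.74 and -1.47 for RAI14, and -0.87 and -2.52 for NRIP1. The differences from SK-N-BE(2)C and SH-SY5Y were 2.64 ± 0.35 (SE, adjusted p = 2.16e-06) and 1.38 ± 0.16 (SE, adjusted p = 1.11e-07) for RAI14, and 0.77 ± 0.19 (SE, adjusted p = 0.00808) and 2.42 ± 0.72 (SE, adjusted p = 0.0447) for NRIP1. INSM2, a factor of neuroendocrine cells, had 3.32, 2.81, 3.05, 3.47 and 0.460 CPM in controls and 10.0, 8.76, 10.1, 8.41 and 0.626 CPM at 24 h. Its difference was 1.98 ± 0.59 (SE, adjusted p = 0.0324) from SK-N-BE(2)C and 2.22 ± 0.59 (SE, adjusted p = 0.0231) from SH-SY5Y, and in IMR-32 by itself it was called with the block and without replicate 5 (1.61, adjusted p = 0.00098) but not otherwise (1.58 ± 0.73 SE, adjusted p = 0.115). The list counts stand against the shares over all 16282 genes, where the response was lower in IMR-32 than in SK-N-BE(2)C for 2.78% and higher for 1.71%, and lower than in SH-SY5Y for 2.03% and higher for 1.04%. By list, 15 of 35 DNA repair genes fell further in IMR-32 than in SK-N-BE(2)C and 0 less far (median difference -0.58), and 5 of 35 than in SH-SY5Y, against 17 and 9 with the block. For origin genes the counts were 9 and 5 of 28, and 12 and 9 with the block. For spindle genes 11 of 33 fell further than in SK-N-BE(2)C and 2 less far, and against SH-SY5Y 2 fell further and 1 less far, with 3 and 4 with the block (median difference 0.04). For kinetochore genes 8 of 32 fell further than in SK-N-BE(2)C and 0 less far, with 13 and 0 with the block. Mitotic kinase and APC/C genes leaned the other way against SH-SY5Y. Of 26, 2 fell further and 2 less far, with 3 and 8 with the block (median difference 0.28). Against SK-N-BE(2)C 4 fell further and 1 less far. Of the 7 cyclin D and RB genes 0 passed the test of the difference against either line, and of 30 ribosome biogenesis genes 0 passed. At an unadjusted p under 0.05, 0 and 2 of the cyclin D and RB genes and 4 and 3 of the ribosome genes passed against SK-N-BE(2)C and SH-SY5Y in edgeR, and no other tool was run on these differences. With the block these counts were 0 and 2 of the cyclin D and RB genes and 7 and 9 of the ribosome genes. No share over all genes was taken at this unadjusted p, so whether these counts exceed it was not tested.

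**Figure D5:**
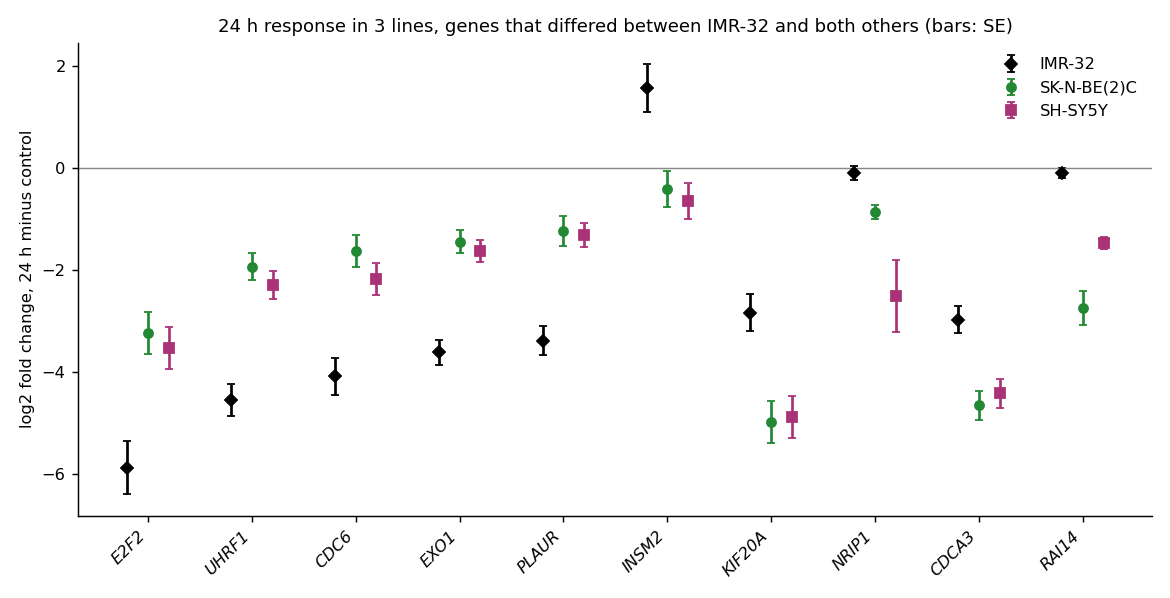
Log2 fold change (24 h PB minus control, y axis) in IMR-32 (diamonds), SK-N-BE(2)C (circles) and SH-SY5Y (squares), 5 libraries per group, for the 10 genes on the x axis whose response in IMR-32 differed most from both other lines in the same direction; bars are SE. E2F2, UHRF1, CDC6, EXO1 and PLAUR lie lower in IMR-32 than in the others, and INSM2, KIF20A, NRIP1, CDCA3 and RAI14 higher.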

How the data were processed

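RNA was poly(A) selected and made into directional libraries, which were sequenced as paired ends in a run of 100 cycles. Per the labels, reads were trimmed with Trim Galore 0.6.4 and aligned with STAR 2.6.1d to hg19. The values used are whole-number counts per gene as deposited by the authors, without normalization, and the strand setting of the counting was not stated. The authors also deposited CPM tables and comparison tables with fold changes and p-values, which were not used.

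The 15 IMR-32 libraries (control, 24 h and a longer treatment) were fitted together in edgeR 4.0.16 (R 4.3.3) with TMM factors, filterByExpr (minimum count 10) and quasi-likelihood tests, with Benjamini-Hochberg adjustment over 14293 genes. Calls needed a size over 0.5 in log2 fold change, up or down, and an adjusted p under 0.05. CPM were computed from these counts, and log2 CPM and list means used a prior count of 2. The difference between lines was the interaction of line and treatment in a fit of all 45 libraries. Same-numbered control and 24 h libraries deviated from their group means together, with correlations of 0.432, 0.129, 0.472, 0.517 and 0.829 for replicates 1 to 5, so the numbers were taken to pair the libraries. Each library of replicates 3, 4 and 5 correlated best with its own number, and neither library of replicates 1 and 2 did. This pairing comes from the data, since the labels do not state it.

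DESeq2 1.42.0, other scalings, no filter, the block and each library left out were the alternatives. In simulated data for this comparison (14231 genes), 50 of 50 genes changed by a log2 fold of -2, 50 of 50 by -1, 49 of 50 by 1 and 50 of 50 by 2 were called in the right direction, and 9 of 14031 unchanged genes were called. The simulation gave every gene the same spread and changed only genes with many counts. It drew the libraries independently, with no outlying replicate and no pairing. These counts therefore check the working of the fit and do not give the rate of wrong calls in the real libraries. Named genes were all members of the short lists, up to 4 of each long list with the largest change and no overlap of groups, the 12 largest rises and falls, and the 5 largest differences from both other lines in each direction. Other genes were named after their values were seen. Some genes that these rules name are not reported here. Members and lists were chosen with earlier results of these data known. Gene positions were from GENCODE on GRCh37 and promoters from RefSeq on GRCh38.p14.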

Additional observations from a re-analysis of the deposited data

Results flagged for a closer look

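In 52 of 188 groups of 5 libraries tested, 1 library lay farther from the rest than Dixon's 95% limit allows. Chance gives this in about 1 of 20 groups where the groups are independent. These groups are lists and single genes read in the same libraries, and some of the genes belong to the lists. They are thus not separate trials, and the count of 52 cannot be set against that rate. Replicate 5 was that library in 48 of them, 31 times in the control and 17 times at 24 h. Control replicate 5 stood apart in the mean log2 CPM of the lists, at these values: E2F and DP factors 6.29, cyclin E/A, CDK2 and CDC25 6.14, MYB family, FOXM1 and MuvB 5.68, mitotic kinases and APC/C 7.05, spindle, condensin and cytokinesis 7.15, p53 targets 4.26 and hypoxia and glycolysis 5.41. Further such list means of this library were neurite cytoskeleton 6.46, synaptic vesicle and exocytosis 5.34, ID, BMP and Notch genes 4.29, interferon response 3.25, mesenchymal state 5.21 and leukocyte -0.21. Among single genes its log2 CPM stood apart in CCNA2 7.55, CCNE1 3.93, CCNE2 5.52, CDC25A 7.21, CDK2 7.15, DYRK1B 3.31, E2F5 5.20, E2F7 6.33 and E2F8 4.63. It did so also in H2AW 1.59, LIN52 4.65, LOC728688 5.55, PIK3IP1 -0.96, PLCL1 1.59, RBL1 5.95, TFDP1 7.94, TFDP2 6.40 and ZNF367 5.59. The 24 h replicate 5 stood apart in the mean log2 CPM of the lists, at these values: cyclin E/A, CDK2 and CDC25 3.37, origin licensing and firing 4.75, replication fork and polymerases 4.86, DNA repair and checkpoint 4.41 and kinetochore 3.74. Further such list means of this library were ribosome biogenesis 7.03, ATF4 targets 4.23, neurite cytoskeleton 7.03, ID, BMP and Notch genes 4.06 and endothelium 0.32. Among single genes its log2 CPM stood apart in CDC25A 4.28, CDC6 3.93, CDKN1A 4.06 and E2F3 6.59. It did so also in E2F7 1.92, UHRF1 4.06 and ZNF367 2.39. The other 4 values were CDC25B in 24 h replicate 3 at a log2 CPM of 5.99, FOXM1 in 24 h replicate 4 at a log2 CPM of 5.34, TFDP2 in 24 h replicate 2 at a log2 CPM of 7.01 and WFIKKN2 in control replicate 3 at a log2 CPM of 6.17.

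In 57 tests on genes given by the naming rule, the 24 h response of IMR-32 differed from that of another line in the edgeR test of the difference itself. Genes named outside that rule are left out here. The rule names some of these genes for that very difference and others for a large change in IMR-32, so 57 is not a rate. Over all 16282 genes tested, 4.49% differed from SK-N-BE(2)C and 3.07% from SH-SY5Y. Against SK-N-BE(2)C, the differences in log2 fold change below 0 were ASF1B -1.69, CCNE1 -1.14, CDC25A -1.26, CDC25B -0.74, CDC45 -1.29, CDC6 -2.45, DYRK1B -1.18, E2F2 -2.64, ESCO2 -1.98, EXO1 -2.17, FEN1 -0.84, HELLS -1.09, KIF18B -1.48, LOC728688 -2.23, MCM10 -1.74, MYBL1 -1.07, PKMYT1 -1.46, PLAUR -2.16, PMAIP1 -0.95, PSAT1 -0.56, RAD54L -1.16, TP53INP1 -1.88, UHRF1 -2.62 and ZNF367 -1.70. Those above 0 were CDCA3 1.68, CDKN2D 0.84, H2AW 1.16, INSM2 1.98, KIF20A 2.15, LIN37 0.57, NHLH1 2.16, NRIP1 0.77, PLCL1 1.86, RAI14 2.64, TRANK1 1.59 and TWIST1 0.60. Against SH-SY5Y, the differences in log2 fold change below 0 were ASF1B -1.37, ATF3 -1.33, CDC6 -1.91, DDB2 -0.77, E2F2 -2.35, EXO1 -1.98, FEN1 -1.04, HELLS -0.80, LOC728688 -1.90, MYBL1 -1.62, PLAUR -2.07, UHRF1 -2.26 and WIPI1 -0.73. Those above 0 were AURKB 2.23, CDCA3 1.45, CDKN2A 1.196, INSM2 2.22, KIF20A 2.05, NRIP1 2.42, RAI14 1.38 and TWIST1 0.68.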

How the results depend on the processing

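The count of 2620 called genes lay between 2374 and 2722 with RLE factors, library size alone, no filter, only the 10 libraries or DESeq2. The 1125 higher and 1495 lower were 932 and 1585 with RLE factors, 832 and 1626 with library size alone, 925 and 1543 with no filter, 863 and 1511 in the 10 libraries and 1007 and 1715 in DESeq2, so the calls leaned further to lower genes in each. Leaving out libraries gave 2136 to 3126 called genes, with the lowest count without replicate 2 and the highest without 24 h replicate 5. With no limit on the fold change the counts were 4738 in all and 2507 higher. With the replicate block, 3122 genes were called, 2591 of them among the 2620. The block changed the count of genes that differed from SK-N-BE(2)C from 731 to 1121 and from SH-SY5Y from 500 to 926, and with no limit on the fold change the first was 1122. Without IMR-32 replicate 5 the counts were 994 and 708. With another IMR-32 replicate left out they were 553 to 637 against SK-N-BE(2)C and 359 to 399 against SH-SY5Y. Among named genes the block added CDKN1C, GCH1, INSM2 and IRF1 and lost SHMT2, and it changed no other call of a gene named in the 24 h comparison. No difference from another line in a gene of the naming rule lost its call with the block. It moved the neurite list from 5 to 9 genes called higher. Of the 2620 genes, 2325 were called the same way without replicate 5 and 2435 in DESeq2, and 0 changed sign in these fits or with the block. In DESeq2 the named genes DUSP1, GATA3, HAND2, IFT140, INA, IRF9, PPAN, SCG2 and TP53I3 lay under the limit on size. The block together with leaving out replicate 5, an alternative chosen after seeing the data, called 2964 genes. Values at or under 4 counts per library, as in E2F8 at 24 h, limit the precision of that fold change, and p-values measure the spread between passages of 1 line.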
